A study of Mus musculus with 12 samples.

Results

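The ISG15 system and a set of antiviral effectors were followed through 12 RNA-seq libraries of mouse embryonic fibroblasts (MEFs). The set has 10 genes, chosen by name and looked up in the deposited count table by their Entrez Gene identifiers. All 10 were among the 24100 genes of the table, had counts in every library and passed the filter on low counts that left 14263 genes for testing. Isg15, Uba7, Ube2l6, Herc6 and Usp18 make up the modifier and its enzymes, and Mx1, Mx2, Rsad2, Bst2 and Cmpk2 are the effectors.

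The study asked how loss of RTF2, a protein of the replisome, changes transcription. WT (Rtf2+/+) MEFs were compared with RTF2-deficient (Rtf2-/lox) MEFs, in 2 lines that came from different mothers, and WT cells were littermate controls. Cells of both genotypes received the Cre recombinase from the Hit & Run pMMP retrovirus 72 hrs before RNA was taken, so exposure to virus and to Cre was shared by all 4 groups. The cells had been immortalized with SV40 large T antigen. Each group, WT line 1, RTF2-deficient line 1, WT line 2 and RTF2-deficient line 2, had 3 libraries, which the paper calls technical replicates in a figure legend. P-values from such libraries measure only their own spread, and each genotype of a line stands for a single source of cells. Total counts ran from 39360167 to 44695002 per library, and the highest floor of a library, the level that 3 counts give, was 0.0770 CPM (counts scaled to the TMM-normalized total of the library), which covers counting error only.

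ISG15 is a ubiquitin-like protein that is joined to other proteins by its own cascade of an activating enzyme (E1), a conjugating enzyme (E2) and a ligase (E3), and is removed again by a protease. Genes of the cascade and many antiviral effectors are transcribed when type I interferon binds its receptor and the kinases JAK1 and TYK2 pass the signal on to the nucleus. Fibroblasts can both make interferon-beta and respond to it.

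Rtf2 itself was at 44.9, 44.8 and 47.2 CPM in replicates 1, 2 and 3 of WT line 1 and at 57.7, 52.9 and 50.9 CPM in WT line 2. It was at 5.63, 5.44 and 6.29 CPM in RTF2-deficient line 1 and at 6.66, 6.49 and 6.33 CPM in RTF2-deficient line 2. The genotypes did not overlap in either line, and the level of Rtf2 fell by 3.01 on the log2 scale (SE 0.0567, edgeR adjusted p = 2.45e-11) over both lines. Every library was thus on the side its label gives.

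The libraries of a group were far apart for the ISG15 system. WT line 2 replicate 1 was the highest of all 12 libraries for all 10 genes. RTF2-deficient line 2 replicate 3 came next for 9 of them, and WT line 2 replicate 3 came next for Uba7. Between the highest and the lowest library of a group, the median gene of the set differed by 3.45 on the log2 scale in WT line 2 and by 4.37 in RTF2-deficient line 2, against 0.34 and 0.30 for the median of all genes tested. In WT line 1 the same medians were 1.70 for the set and 0.30 for all genes, and in RTF2-deficient line 1 they were 0.67 and 0.27. A difference of more than 2 on this scale was found within WT line 2 for 10 of the 10 genes and for 2.25% of all genes tested, and within RTF2-deficient line 2 for 10 of 10 and 2.10%. It was found within WT line 1 for 4 of 10 and 1.53%, and within RTF2-deficient line 1 for 1 of 10 and 1.12%.

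The order of the libraries was shared as well. In WT line 2 all 10 genes were highest in replicate 1 and lowest in replicate 2, an order that 27.7% of all genes tested had, and in RTF2-deficient line 2 all 10 were highest in replicate 3 and lowest in replicate 1, as were 23.7% of all genes. In WT line 1 replicate 1 was highest for 9 of the 10, beside 38.1% of all genes, and in RTF2-deficient line 1 replicate 1 was highest for 9, beside 40.3%. No pair of libraries of a group was alike within sampling noise, with a chi-square per degree of freedom of 20.5 to 179.5. In each group the library in which most of the set was highest was also in the 2 pairs with the largest values, replicate 1 in WT line 1 (60.3 and 82.3 against 26.5), RTF2-deficient line 1 (54.1 and 60.8 against 21.8) and WT line 2 (179.5 and 85.0 against 42.9), and replicate 3 in RTF2-deficient line 2 (89.8 and 68.6 against 20.5). These 4 libraries stand apart from the others of their groups. Tests of the set below use all 12 libraries and are followed by the libraries whose omission changes a call, and counts of other lists by the libraries whose omission changes them or by their range over the omissions.

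Isg15, the modifier (Entrez 100038882, minus strand, chr4:156199424-156200818 on GRCm38), was measured at 58.3, 6.24 and 9.77 CPM in the 3 libraries of WT line 1, replicate 1 first. In RTF2-deficient line 1 it was at 16.7, 5.59 and 6.44 CPM, in WT line 2 at 691.8, 99.2 and 296.3 CPM, and in RTF2-deficient line 2 at 13.5, 34.3 and 347.6 CPM. The genotypes overlapped in both lines, whereas every library of WT line 2 lay above every library of WT line 1. Group means were 24.8 ± 29.1, 9.56 ± 6.16, 362.4 ± 301.8 and 131.8 ± 187.2 CPM in the same order (SD, n = 3 each), so the SD was near or above the mean in 3 of the 4 groups. RTF2-deficient against WT, the log2 fold change was -1.37 (SE 1.21) in line 1 and -1.46 (SE 1.17) in line 2, with edgeR adjusted p of 0.718 and 0.457.

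Uba7, the E1 of the cascade (Entrez 74153, plus strand, chr9:107975567-107984056), was the member with the most separate genotypes. Its CPM was 4.20, 1.88 and 1.81 in WT line 1 and 0.836, 0.662 and 0.585 in RTF2-deficient line 1, with no overlap. In line 2 it was 54.4, 4.87 and 13.2 CPM in WT libraries and 0.577, 0.847 and 8.59 CPM in RTF2-deficient libraries, where replicate 3 of the latter reached above replicate 2 of the former. Over both lines Uba7 fell by 2.45 on the log2 scale (SE 0.744, edgeR adjusted p = 0.0495), which is just inside the threshold of 0.05. That call was kept in 2 of the 12 fits that leave out a library, where WT line 2 replicate 2, or in its place replicate 3 of RTF2-deficient line 2, was left out. Over the 12 fits adjusted p ran from 0.0246 to 0.113 and the fold change from -3.31 to -1.67. The call was also lost with no filter, with no line term and with replicate number as a term. In line 2 the same replicate numbers did not pair between genotypes. A fit on the summed libraries of each group had a single sample per group and could not decide the call. Within a line, the values were -1.92 (SE 1.12, adjusted p = 0.528) in line 1 and -2.85 (SE 1.01, adjusted p = 0.0939) in line 2.

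Ube2l6, the E2 (Entrez 56791, plus strand, chr2:84798828-84810003), and Herc6, the main E3 in mouse (Entrez 67138, plus strand, chr6:57580992-57665136), had the narrowest range of the set. Ube2l6 was at 29.8, 18.7 and 18.0 CPM in WT line 1, at 18.1, 15.9 and 14.1 CPM in RTF2-deficient line 1, at 142.9, 19.4 and 38.6 CPM in WT line 2 and at 12.1, 13.9 and 59.3 CPM in RTF2-deficient line 2. Herc6 was at 22.6, 15.8 and 15.4 CPM, then 17.6, 14.2 and 14.5 CPM, then 167.5, 22.5 and 49.1 CPM, then 15.2, 18.1 and 64.7 CPM in the same groups. For both genes replicates 1 and 3 of WT line 2 and replicate 3 of RTF2-deficient line 2 were the 3 highest libraries, and WT line 1 replicate 1 came next. The genotypes overlapped in both lines for both genes. Over both lines the log2 fold change was -0.86 (SE 0.503, edgeR adjusted p = 0.286) for Ube2l6 and -0.76 (SE 0.492, adjusted p = 0.333) for Herc6.

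Usp18, the protease that takes ISG15 off its targets and also binds the interferon receptor to damp its signal (Entrez 24110, plus strand, chr6:121245906-121270917), varied most among the enzymes. It was at 22.1, 0.793 and 2.56 CPM in WT line 1 and at 3.22, 0.539 and 0.634 CPM in RTF2-deficient line 1. In line 2 it was at 353.0, 32.5 and 119.3 CPM in WT and at 2.16, 12 and 157.1 CPM in RTF2-deficient libraries. The highest library of RTF2-deficient line 2 was thus 72.6-fold above the lowest of the same group, although both carry the same genotype and line. Its genotype effect was -1.97 over both lines on the log2 scale (SE 1.05, edgeR adjusted p = 0.240).

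**Figure D1:**
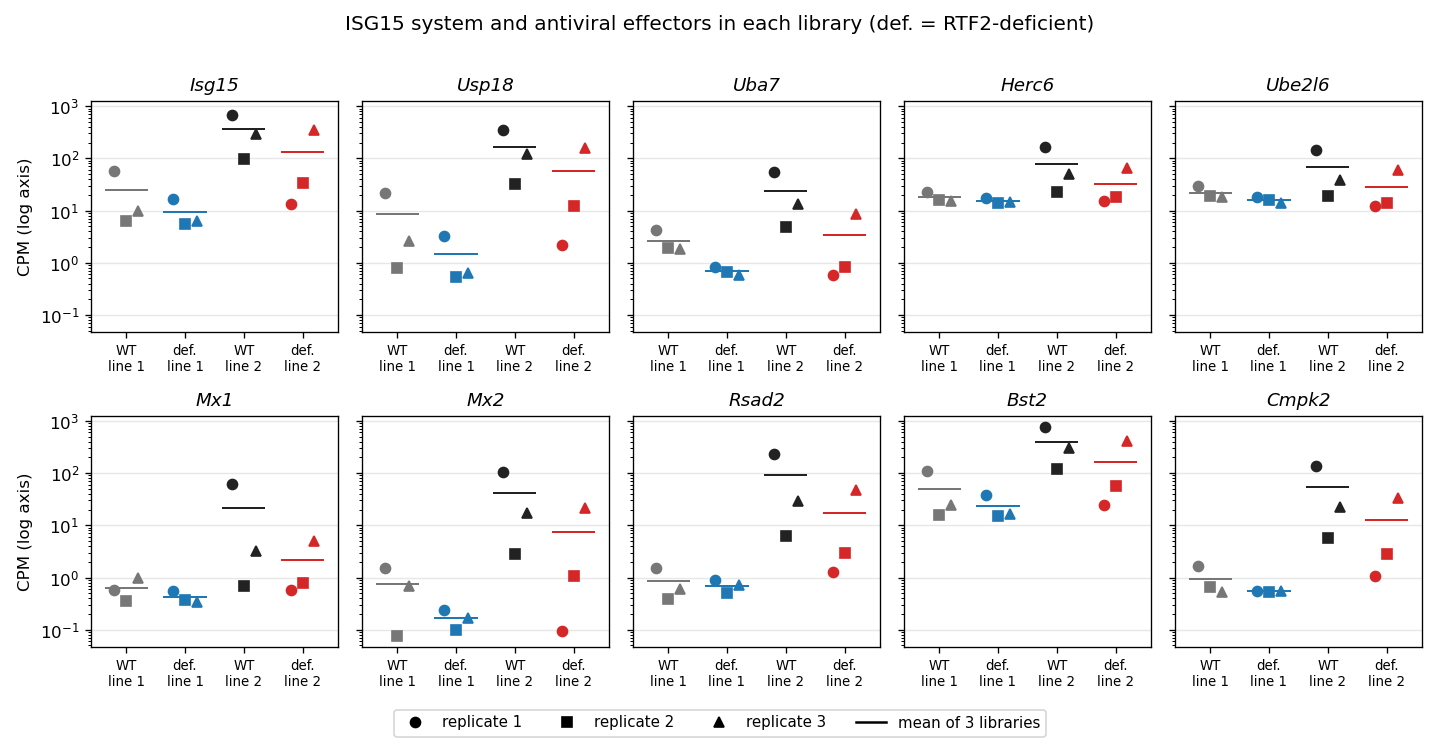
CPM of each of the 10 genes in each library, on a log axis; symbols mark the replicate number, and the line is the mean of the 3 libraries of a group. For Isg15 the points of RTF2-deficient line 2 run from 13.5 to 347.6 CPM, and WT line 2 replicate 1 is the highest point in every panel.

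Rsad2, which encodes viperin, a radical SAM enzyme that makes a chain-terminating nucleotide (Entrez 58185, minus strand, chr12:26442743-26456452), was at 1.55, 0.396 and 0.603 CPM in WT line 1 and at 0.883, 0.515 and 0.707 CPM in RTF2-deficient line 1. It was at 235.5, 6.37 and 29.7 CPM in WT line 2 and at 1.27, 2.95 and 48.5 CPM in RTF2-deficient line 2. All libraries of line 2 lay above all of line 1 within each genotype, and the genotypes overlapped in both lines. Cmpk2, a mitochondrial nucleotide kinase (Entrez 22169, plus strand, chr12:26469117-26479837), is the neighbour of Rsad2, in the opposite direction and 12664 bases away. It was at 1.65, 0.644 and 0.531 CPM in WT line 1, at 0.549, 0.539 and 0.561 CPM in RTF2-deficient line 1, at 136.8, 5.73 and 22.6 CPM in WT line 2 and at 1.06, 2.80 and 33.6 CPM in RTF2-deficient line 2. The libraries of Cmpk2 fell in the same order as those of Rsad2 in both groups of line 2. Neither gene was called for genotype, with log2 fold changes over both lines of -1.68 (SE 1.10, edgeR adjusted p = 0.336) for Rsad2 and -1.69 (SE 0.962, adjusted p = 0.272) for Cmpk2.

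Mx1 and Mx2 encode dynamin-like GTPases and lie 73174 bases apart (Entrez 17857, minus strand, chr16:97447035-97462906; Entrez 17858, plus strand, chr16:97536081-97560901). RefSeq annotates both as transcribed pseudogenes in the C57BL/6J assembly. Mx1 was at 0.573, 0.347 and 0.989 CPM in WT line 1, at 0.549, 0.368 and 0.341 CPM in RTF2-deficient line 1, at 60.7, 0.683 and 3.21 CPM in WT line 2 and at 0.577, 0.795 and 5.06 CPM in RTF2-deficient line 2. Outside WT line 2 replicate 1, no library held more than 5.06 CPM of Mx1. Mx2 was at 1.5, 0.0743 and 0.675 CPM, then 0.239, 0.0981 and 0.171 CPM, then 103.2, 2.78 and 17.1 CPM, then 0.0962, 1.08 and 21.1 CPM in the same groups. Several libraries thus sat close to the floor for Mx2, with as few as 3 counts. The effect of genotype over both lines was -2.31 for Mx1 (SE 1.11, edgeR adjusted p = 0.195) and -2.38 for Mx2 (SE 1.17, adjusted p = 0.204), both on the log2 scale.

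Bst2, or tetherin, a membrane protein that holds budding virus at the cell surface (Entrez 69550, minus strand, chr8:71534255-71537472), was at 109.0, 15.7 and 24.6 CPM in WT line 1 and at 37.7, 15.2 and 16.3 CPM in RTF2-deficient line 1. In line 2 it was at 779.2, 120.4 and 301.7 CPM in WT and at 24.8, 55.6 and 416.1 CPM in RTF2-deficient libraries. Genotypes overlapped in both lines, and the log2 fold change over both lines was -1.19 (SE 0.715, edgeR adjusted p = 0.296).

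Levels of the 10 genes were compared with each other only after division by exon length. By mean, Bst2 and Isg15 led in every group, with 443.4 and 479.4 CPM per kb of exon in WT line 2 and 25.5 and 12.7 in RTF2-deficient line 1. Between this pair the ranges of the libraries overlapped in all 4 groups. The lowest and the highest library of a group were the same for both genes. There Bst2 was at 17.4 and 120.7 CPM per kb in WT line 1, against 8.25 and 77.1 for Isg15. In RTF2-deficient line 1 it was at 16.8 and 41.7 against 7.39 and 22.1. In RTF2-deficient line 2 it was at 27.5 and 460.8 against 17.9 and 459.8. In WT line 2 it was at 133.3 and 862.9 against 131.2 and 915.1, so the order was mixed there. The libraries of Isg15 overlapped those of Ube2l6 in line 1, where Ube2l6 ran from 9.02 to 14.9 in WT and from 7.06 to 9.07 in RTF2-deficient cells. In RTF2-deficient line 2 both Isg15 and Bst2 overlapped Ube2l6 (6.06 to 29.7) and Usp18 (0.774 to 56.3). Usp18 (60.3 CPM per kb in WT line 2), Ube2l6 (33.6), Rsad2 (20.9), Cmpk2 (13.2), Mx2 (11.4), Herc6 (8.58), Mx1 (5.69) and Uba7 (3.61) followed in WT line 2, with neighbours in that order overlapping. In RTF2-deficient line 1 the order was not the same, since Ube2l6 (8.03) and Herc6 (1.66) stood above Usp18 (0.525), and Mx2 was lowest (0.0469).

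Taken by comparison, genotype moved few of the 10 genes past the thresholds, an adjusted p under 0.05 over all genes tested and a log2 fold change beyond 1. Over both lines 1 of the 10, Uba7, was called, beside 1.72% of all genes tested (246 of 14263). All 10 fold changes were below 0, with a median of -1.69, against a median of 0.0019 for all genes, and they were below 0 under every alternative tried. Their size depended on the libraries. In fits that leave out a library, the values nearest to 0 were -0.13 for Rsad2, -0.17 for Herc6 and -0.21 for Mx1. Ube2l6 came to -0.27, Cmpk2 to -0.44, Bst2 to -0.65, Isg15 to -0.76, Mx2 to -1.07, Usp18 to -1.1 and Uba7 to -1.67. Without RTF2-deficient line 2 replicate 3, Mx2 was called beside Uba7, and 0 of the 10 were called in 10 of the 12 fits that leave out a library. DESeq2 called 1, Uba7, with all libraries, beside 2.07% of all genes. By edgeR 0 were called with no filter, with no line term and with replicate number as a term. That term joins same numbers, which did not pair between genotypes in line 2. The fit on summed libraries, with a single sample per group, could not decide a call.

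In line 1, 0 of the 10 were called, beside 0.918% of all genes, 0 had an unadjusted p under 0.05 by edgeR (1986 of all genes did) and DESeq2 called 0, beside 1.23% of all genes. In that line Uba7 was the only member with every RTF2-deficient library below every WT library, as was the case for 11.3% of all genes. Libraries of the same number were alike across genotypes in line 1, and within these pairs 6 of the 10 (Isg15, Usp18, Uba7, Herc6, Ube2l6 and Bst2) were lower in the RTF2-deficient library all 3 times, beside 28.4% of all genes. Without WT line 1 replicate 1 the log2 fold changes of Isg15, Bst2 and Rsad2 in line 1 were 0.27, 0.21 and 0.50. The genes called in all, 131, were 87 in that fit. They were 85 when WT line 1 lost replicate 2, and 78 when RTF2-deficient line 1 did.

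In line 2, edgeR called 0 of the 10 for genotype, beside 3.78% of all genes, 2 had an unadjusted p under 0.05 (3969 of all genes did), and DESeq2 called 1, Uba7, beside 4.44% of all genes. No member had all RTF2-deficient libraries below all WT libraries in line 2, against 15.5% of all genes. These counts depended on the libraries used. Without RTF2-deficient line 2 replicate 3, 7 of the 10 were called lower in that line (Isg15, Uba7, Herc6, Ube2l6, Mx2, Rsad2 and Cmpk2), and the genes called in all went from 539 to 888. When replicate 2 of that group was left out in its place, they were 320. With replicate 3 of RTF2-deficient line 2 and replicate 1 of WT line 2 both left out, an alternative chosen after seeing the data, 4 were called (Uba7, Ube2l6, Rsad2 and Cmpk2), and 628 genes in all. Without WT line 2 replicate 1 alone, 0 were called and the value of Mx1 turned from -3.32 to 0.15. Over the fits that leave out a library, Ube2l6 came as near to 0 as -0.02 in line 2, Rsad2 -0.03, Herc6 -0.12 and Cmpk2 -0.18. Bst2 came to -0.35, Mx2 and Usp18 to -0.41, Isg15 to -0.58 and Uba7 to -1.42. The genotypes of line 2 also differed in sex. Xist was at 0.132 CPM or less in the libraries of WT line 2 and at 114.2, 172.8 and 135.0 CPM in RTF2-deficient line 2, while Ddx3y was at 104.4, 91.8 and 106.7 CPM and at most 0.0678 CPM. In line 2, embryo, sex and genotype cannot be told apart. In line 1 Xist was between 102.9 and 124.7 CPM in all 6 libraries, so the genotypes there were of the same sex.

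The difference between the genotype effects of the lines was called for 0 of the 10, beside 1.05% of all genes. By edgeR 0 had an unadjusted p under 0.05 (1211 of all genes did), and DESeq2 called 0, beside 1.88% of all genes. The values ran from -2.72 (SE 2.05) for Mx1 to 0.97 (SE 2.14) for Usp18 on the log2 scale and 9 of the 10 were below 0, with all 12 libraries. Their sign depended on the libraries: all 10 were above 0 when WT line 2 replicate 1 was left out, among them Mx2 at 1.72 and Mx1 at 0.75. Usp18 was at -2.03 when replicate 3 of RTF2-deficient line 2 was left out. The genes called in all, 150, were 86 or 59 when replicate 1 or replicate 2 of RTF2-deficient line 2 was left out. They were 90 or 69 when replicate 1 or replicate 2 of RTF2-deficient line 1 was left out, 70 when WT line 1 lost replicate 2, and 68 when WT line 2 lost replicate 3.

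The lines were compared within each genotype, which asks how far cells from different mothers differ. WT line 2 against WT line 1, 4 of the 10 were called, all higher, beside 6.76% of all genes. Rsad2 was 6.72 higher on the log2 scale (SE 1.69, edgeR adjusted p = 0.0229), Cmpk2 5.86 (SE 1.48, adjusted p = 0.0232), Mx2 5.76 (SE 1.74, adjusted p = 0.0496) and Mx1 5.07 (SE 1.48, adjusted p = 0.0428). Over the fits that leave out a library, Rsad2 ran from 4.38 to 7.47 and Cmpk2 from 3.89 to 6.52. Mx2 ran from 3.7 to 6.73 and Mx1 from 1.59 to 5.64. The other 6 were between 1.60 (Ube2l6) and 4.31 (Usp18) and had adjusted p of 0.0641 to 0.177. All libraries of WT line 2 lay above all of WT line 1 for 7 of the 10 (the exceptions were Herc6, Ube2l6 and Mx1), as they did for 15.1% of all genes. The number called moved with the libraries used. It was 0, 6 and 3 when WT line 2 lost replicate 1, 2 or 3, and 1, 0 and 0 when WT line 1 did. The genes called in all, 964, were 735, 1091 and 827, then 790, 704 and 830 in these fits. The 1 member called when WT line 1 lost replicate 1 was Isg15, so the 4 calls above were all lost there. Uba7 and Herc6 were gained without replicate 2 of WT line 2, and Mx2 was lost without its replicate 3. It was 2 (Rsad2 and Cmpk2) when any library of RTF2-deficient line 1 was left out, with 957, 881 and 922 genes in all. For RTF2-deficient line 2 it was 4, 2 and 9 when replicate 1, 2 or 3 was left out, with 972, 919 and 1066 genes in all. DESeq2 called 9, all but Ube2l6, beside 7.85% of all genes. With replicate number as a term edgeR called 2, Isg15 and Rsad2, with 887 genes in all. The calls of Mx1, Mx2 and Cmpk2 were thus lost there and that of Isg15 was gained. The WT lines also differed in sex, so sex and line cannot be told apart there.

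RTF2-deficient line 2 against RTF2-deficient line 1, edgeR called 0 of the 10, beside 1.28% of all genes, 6 had an unadjusted p under 0.05 (1911 of all genes did), and DESeq2 called 4, Usp18, Mx2, Rsad2 and Cmpk2, beside 2.33% of all genes. The fold changes ran from 0.83 for Ube2l6 to 5.28 for Usp18 on the log2 scale, all above 0. Mx1, Rsad2 and Cmpk2 were higher in every library of line 2, 3 of the 10 beside 9.77% of all genes. Without RTF2-deficient line 2 replicate 3 the value of Ube2l6 was -0.31. The genes called in all, 183, were 98 when RTF2-deficient line 2 lost replicate 2 and 115 when RTF2-deficient line 1 did. Comparisons that share a group are not independent of each other.

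**Figure D2:**
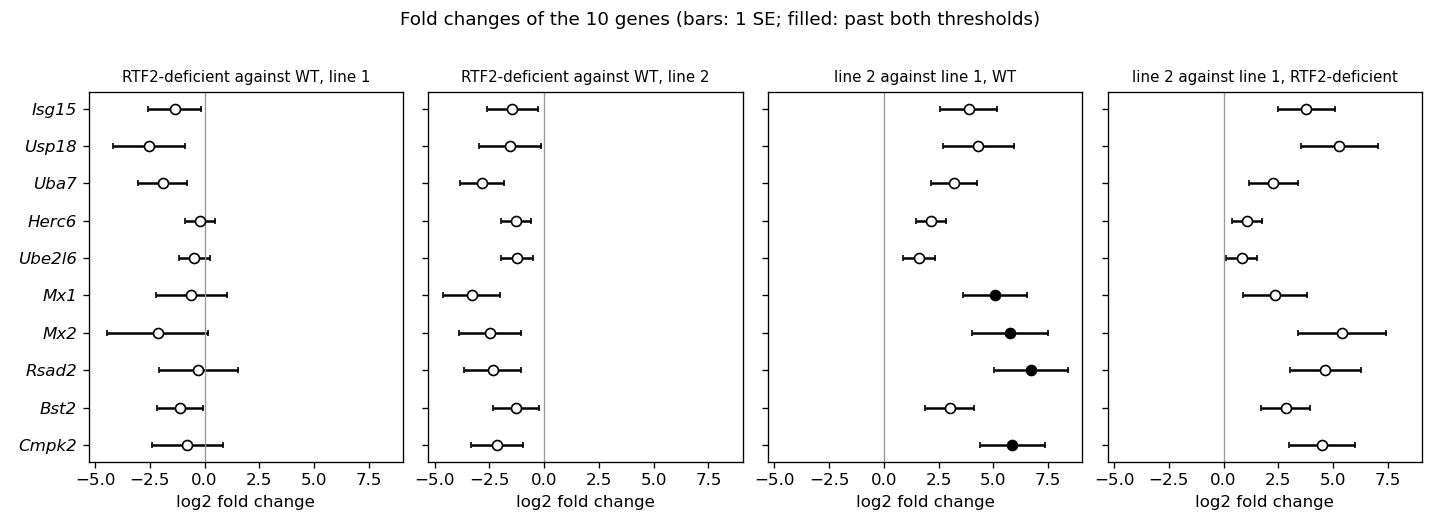
Log2 fold change of the 10 genes in 4 comparisons; bars are 1 SE and filled points are past both thresholds. The filled points are Mx1, Mx2, Rsad2 and Cmpk2 in WT line 2 against WT line 1, and in the genotype panels every point, from all 12 libraries, is below 0 and none is filled.

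The genes most like the set were found by centring log2 CPM in each group and correlating each gene with the mean of the 10 over the 12 libraries, as a description. Among 12230 other genes, those near the top were Samd9l (r = 0.996), Ifih1 (0.993), Gm6548 (0.993), Ghitm (0.992), Ifi35 (0.992), Gbp3 (0.991), Trim30a (0.991), Eif2ak2 (0.990) and Parp12 (0.990). Of these, Ifih1 senses viral double-stranded RNA and Eif2ak2 encodes the kinase PKR. Samd9l was at 350.1, 68.9 and 140.1 CPM in WT line 2 and at 31.9, 49.5 and 182.7 CPM in RTF2-deficient line 2, the library order of the set. Within the set, the correlation of a gene with the mean of the other 9 ran from 0.842 for Mx1 to 0.989 for Rsad2. In all, 161 genes outside the set had r above 0.95, so the order of libraries was not confined to it.

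Other interferon-stimulated antiviral genes were listed for comparison. Of 53 tested, 1 was called, lower, for genotype over both lines (Shfl, -1.45, SE 0.419, edgeR adjusted p = 0.0407), beside 1.72% of all genes. The median of the list was -1.15 against 0.0019 for all genes, and it was -0.51 when WT line 2 lost replicate 1. The call of Shfl was lost in 8 of the 12 fits that leave out a library, all but those that omit replicate 2 or 3 of WT line 1, replicate 2 of WT line 2 or replicate 3 of RTF2-deficient line 2, and the list's count ran from 0 to 9, with 9 when RTF2-deficient line 2 lost replicate 3. DESeq2 called 3 of the 53, beside 2.07% of all genes. In line 1 edgeR called 0 of the 53 for genotype, beside 0.918% of all genes, with 1 at an unadjusted p under 0.05 and 0 called by DESeq2. In line 2 it called 0, beside 3.78%, with 8 at an unadjusted p under 0.05 and 1 called by DESeq2, and 38 when RTF2-deficient line 2 lost replicate 3, with 888 genes called in all. WT line 2 against WT line 1, 21 of the 53 were called, all higher, beside 6.76% of all genes, with a median of 3.30 against 0.0152 for all genes. That count was 1, 38 and 12 when WT line 2 lost replicate 1, 2 or 3, and 7, 0 and 1 when WT line 1 did. It was 14, 9 and 11 for the same omissions in RTF2-deficient line 1, and 26, 18 and 43 in RTF2-deficient line 2. DESeq2 called 41, beside 7.85% of all genes. The median of the list between the WT lines was 1.9 when WT line 2 lost replicate 1. Between the RTF2-deficient lines edgeR called 0 of the 53, beside 1.28% of all genes, with 35 at an unadjusted p under 0.05 and 19 called by DESeq2, beside 2.33% of all genes. Oas1g (6.83, SE 1.96), Oasl1 (6.56, SE 1.45), Oas3 (6.38, SE 1.75) and Iigp1 (6.21, SE 1.86) had the largest log2 fold changes between the WT lines, and of these 4 only the call of Oasl1 held when WT line 2 lost replicate 1. Counts near the floor in WT line 1 limit the size of 3 of these. Oas1g was at 0.310, 0 and 0.0724 CPM there, and replicate 2 held 0.0743 CPM of Oas3 and 0.149 CPM of Iigp1. The genes of the list with the highest mean CPM, not divided by length, were Irgm1, Samhd1 and Ifitm3, and Ifitm3, which hinders virus entry, was at 730.2, 190.6 and 375.7 CPM in WT line 2 and at 58.8, 112.7 and 427.6 CPM in RTF2-deficient line 2.

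Of the interferon ligands, 15 of 21 had no count in any library and 3 more had at most 1. Ifnb1 had 69 counts (1.5 CPM) in WT line 2 replicate 1, 6 in WT line 2 replicate 3, 5 in RTF2-deficient line 2 replicate 3, 2 in replicate 2 of that group, 1 in RTF2-deficient line 1 replicate 1 and 0 in the remaining 7 libraries. Ifna4 had 13 counts in WT line 2 replicate 1, 6 in RTF2-deficient line 2 replicate 3, 3 in WT line 2 replicate 3 and 0 elsewhere. The 3 libraries with the most Ifnb1 counts were also the 3 highest for all 10 genes of the set. Ifnz, the only ligand tested, had 14 to 43 counts in every library and did not follow that order.

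Receptors and kinases upstream had a narrower range. Ifnar1 ran from 86.5 to 110.4 CPM, Ifnar2 from 32.3 to 39.3 CPM and Jak1 from 278.3 to 350.5 CPM over the 12 libraries. The genotypes did not overlap for the kinase Tyk2 in either line. It was at 22.6, 23.1 and 21.5 CPM in WT line 1, at 10.7, 9.39 and 9.26 CPM in RTF2-deficient line 1, at 29.8, 24.0 and 25.2 CPM in WT line 2 and at 7.43, 8.47 and 12.1 CPM in RTF2-deficient line 2. Tyk2 fell by 1.19 (SE 0.162, edgeR adjusted p = 0.00304) in line 1 and by 1.49 (SE 0.163, adjusted p = 0.000335) in line 2 on the log2 scale. It was the only one of the 21 receptor and signalling genes tested that was called for genotype in either line with all 12 libraries, 1 of 21 beside 0.918% of all genes in line 1 and 3.78% in line 2. Both calls were kept in all 12 fits that leave out a library, while without RTF2-deficient line 2 replicate 3 the list had 5 calls in line 2, with 888 genes called in all. The transcription factor gene Irf7 had the library order of the set in line 2, at 672.4, 25.1 and 103.6 CPM in WT and at 1.90, 6.80 and 138.3 CPM in RTF2-deficient libraries. WT line 2 against WT line 1, 1 of the 21 was called higher, the phosphatase gene Ptpn6 (1.38, SE 0.274, adjusted p = 0.00673), beside 6.76% of all genes, and the count ran from 1 to 5 over the omissions, with 5 when WT line 2 lost replicate 2 and 4 when RTF2-deficient line 2 lost replicate 1 or 3. DESeq2 called 4 of the 21 there, beside 7.85% of all genes. Ptpn6 was also the 1 of the 21 called higher between the RTF2-deficient lines (1.64, SE 0.280, adjusted p = 0.0124), beside 1.28% of all genes, a call lost when RTF2-deficient line 1 lost replicate 2 or 3, and DESeq2 called 2, beside 2.33%.

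Among nucleic acid sensors and their regulators, 16 of 18 were tested. Over both lines 1 was called lower for genotype, Rnaseh2c, a subunit of RNase H2 (-1.02, SE 0.114, edgeR adjusted p = 0.000145), beside 1.72% of all genes. Its CPM was 15.1, 15.2 and 16.1 in WT against 7.76, 8.17 and 7.82 in RTF2-deficient libraries of line 1, where 0 of the 16 were called, beside 0.918% of all genes (2 at an unadjusted p under 0.05 by edgeR, 0 called by DESeq2). In line 2 it was 12.6, 21.3 and 14.0 against 7.38, 7.18 and 8.04, and Rnaseh2c was called there too (-1.08, SE 0.166, adjusted p = 0.00219). The call over both lines was lost when WT line 2 lost replicate 2 (-0.90), as was that in line 2 (-0.82), and the count over both lines was 2 when RTF2-deficient line 2 lost replicate 3. Ikbke joined it in line 2 (-1.06, SE 0.254, adjusted p = 0.0195), a call lost when WT line 2 lost replicate 1 or RTF2-deficient line 2 lost replicate 1 or 2. The list thus had 2 calls in line 2, beside 3.78% of all genes, and 8 when RTF2-deficient line 2 lost replicate 3, with 888 genes called in all. WT line 2 against WT line 1, 3 were called higher, Ifi204 (5.05, SE 1.34), Ifih1 (3.77, SE 0.862) and Sting1 (1.19, SE 0.139), beside 6.76% of all genes. Sting1 kept that call in all 12 fits, Ifih1 in 10, all but those that omit replicate 2 or 3 of WT line 1, and Ifi204 in 8, all but those that omit replicate 1 of WT line 2 or any library of WT line 1. The count was 8 when RTF2-deficient line 2 lost replicate 3 or WT line 2 lost replicate 2, 5 when RTF2-deficient line 2 lost replicate 1, and 1 when WT line 1 lost replicate 2 or 3, and DESeq2 called 8, beside 7.85% of all genes. Sting1 was also called higher in RTF2-deficient line 2 against RTF2-deficient line 1 (1.23, SE 0.140, adjusted p = 0.00111), 1 of the 16 beside 1.28% of all genes, where DESeq2 called 4, beside 2.33%, and its libraries there were close, at 26.8, 29.3 and 32.4 CPM.

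Enzymes of ubiquitin and related proteins, which share folds and partners with the ISG15 cascade, had a median log2 fold change of 0.12 for genotype over both lines, and 12 of the 17 were above 0. Uba1, the E1 of ubiquitin itself, had the highest CPM of the list, not divided by length, and ran from 468.8 to 625.1 CPM, and Ube2l3 from 191.0 to 253.9 CPM. Within groups both ran against the set (r of -0.804 and -0.907 with its mean over the 12 libraries). In all, 7 of the 17 (Uba1, Ube2l3, Ube2e1, Ube2n, Herc3, Herc4 and Usp14) were lowest in all 4 libraries that stand apart, beside 15.7% of all genes. Highest in all 4 were 2 of the 17, Trim25 and Usp21, beside 15.4%. Trim25, a ligase that acts on the RNA sensor RIG-I, was at 196.9, 55.9 and 107.5 CPM in WT line 2 and at 24.0, 44.9 and 105.6 CPM in RTF2-deficient line 2, and was the 1 of 17 called higher in WT line 2 against WT line 1 (2.29, SE 0.613, edgeR adjusted p = 0.0312), beside 6.76% of all genes. The call was lost when WT line 2 lost replicate 1 or 3, or WT line 1 lost replicate 2 or 3, which left 0 of the list, and DESeq2 also called 1 of the 17, beside 7.85% of all genes.

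Genes regulated by NF-kappaB, both cytokine genes and others such as Ptgs2 and Vcam1, were listed for comparison as well. Within groups, r with the mean of the set was 0.983 for Cxcl10, 0.978 for Ccl5, 0.442 for Ptgs2 and -0.399 for Vcam1. Of 13 tested, 6 were called higher in WT line 2 against WT line 1, beside 6.76% of all genes, led by Cxcl10 (5.49, SE 1.02, edgeR adjusted p = 0.00457), Ccl5 (4.80, SE 1.10), Ccl7 (3.83, SE 0.655) and Ccl2 (3.25, SE 0.527). Cxcl10, Ccl7 and Ccl2 kept that call in all 12 fits that leave out a library, and Ccl5 lost it when WT line 1 lost replicate 2 or 3. Cxcl1 also kept it in all 12, while Ptgs2 (1.08, SE 0.305, adjusted p = 0.0379) lost it in 7 of them, where its fold change fell as low as 0.67. The count of the list ran from 4, when WT line 1 lost replicate 2, to 7. Omissions also changed how many of the list were tested. It was 15 in that fit and when RTF2-deficient line 1 lost replicate 1, where 7 were called. DESeq2 called 6 as well, beside 7.85% of all genes. Between the RTF2-deficient lines 1 of the 13 was called, Ccl2 (2.38, SE 0.519, adjusted p = 0.0435), beside 1.28% of all genes, and it was kept only when WT line 1 lost replicate 1 or WT line 2 lost replicate 1 or 2. The count of the list was 4 when WT line 2 lost replicate 1 and 0 or 1 in the other fits, and DESeq2 called 4, beside 2.33% of all genes. For genotype over both lines 2 were called lower, Cxcl5 (-2.87, SE 0.798, adjusted p = 0.0347) and Cxcl1 (-1.54, SE 0.321, adjusted p = 0.00834), beside 1.72% of all genes. Cxcl1 kept its call in all 12 fits and Cxcl5 in 4. These 4 omit replicate 1 or 2 of WT line 1, replicate 1 of WT line 2 or replicate 3 of RTF2-deficient line 2. The count was thus 1 or 2, and DESeq2 called 1 of the 13, beside 2.07% of all genes. Over the 12 fits Cxcl5 ran from -3.08 to -1.64. It was at 0.334, 0.149 and 15.2 CPM in WT line 1, against 0.669, 0.466 and 0.414 CPM in RTF2-deficient line 1, so replicate 3 alone set the higher WT level there. In line 2 Cxcl1 was the 1 called lower (-1.78, SE 0.429, adjusted p = 0.0205), beside 3.78% of all genes, and the count ran from 0 to 4, with 4 when RTF2-deficient line 2 lost replicate 3. Cxcl10 was at 449.4, 51.6 and 128.3 CPM in WT line 2 and at 19.1, 29.7 and 161.0 CPM in RTF2-deficient line 2, the order of the set once more.

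The label of the cells was checked against markers. Collagens and Vim were high in all libraries (Col1a1 4847.7 to 9492.1 CPM, Col1a2 3676.0 to 7108.2 CPM, Vim 2155.6 to 3924.0 CPM), while Dcn and Lum, markers of many fibroblasts, were at 2.10 CPM or less. Among leukocyte markers, Cd3e had no count and Ptprc was at 0.122 CPM or less, while Cd14 was at 1.89 to 3.80 CPM and Cd68 at 1.44 to 8.94 CPM. The 12 leukocyte markers, of which 5 were tested, summed to 7.16, 5.82 and 6.25 CPM in WT line 1, 5.23, 4.90 and 5.95 CPM in RTF2-deficient line 1, 14.0, 10.8 and 11.3 CPM in WT line 2 and 8.27, 9.62 and 8.63 CPM in RTF2-deficient line 2. Cd68 had the highest CPM of them, not divided by length, and was 1 of the 5 called higher in WT line 2 against WT line 1 (2.01, SE 0.219, edgeR adjusted p = 0.000159), beside 6.76% of all genes, a call kept in all 12 fits that leave out a library. It was also the 1 of the 5 called, lower, for genotype in line 2 (-1.07, SE 0.210, adjusted p = 0.00809), beside 3.78%, a call lost when WT line 2 lost replicate 1 or RTF2-deficient line 2 lost replicate 2. Of 6 markers of plasmacytoid dendritic cells, the cells that make the most type I interferon, Siglech was at 0.154 CPM or less and Klk1 had no count, and nearly all of their sum, 110.3 to 166.2 CPM, came from Tcf4. Endothelial markers summed to 10.7 to 21.5 CPM with Pecam1 at 0.113 CPM or less. In bulk RNA, fewer cells of a kind and less RNA per cell cannot be told apart, and the part of these markers in the results was not tested.

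Markers were compared over the libraries that stand apart, and with the mean of the set over all 12 libraries after centring in each group. Of 5 leukocyte markers tested, Cd68 was highest in all 4 of those libraries (r = 0.908 with the set), while Cd14 had r = 0.556 and Csf1r r = -0.557. Cd68 was at 8.94 CPM in that library of WT line 2 against 5.18 and 6.04 in the others, and at 3.82 CPM against 2.96 and 2.85 in RTF2-deficient line 2. In RTF2-deficient line 1 it was nearly level, at 1.77 CPM against 1.67 and 1.76. The endothelial marker Tek was highest in all 4 as well (r = 0.654), 1 of 2 tested, while Kdr had r = -0.487, and Tcf4 had r = 0.823 with the set. Of 10 fibroblast markers, Col1a1 and Col1a2 were highest in those 4 libraries and Vim and S100a4 were lowest in them, beside 15.4% of all genes tested that were highest and 15.7% that were lowest. Col1a1 was at 9492.1 CPM in that library of WT line 1 against 7190.4 and 6101.2 in the others, and at 6516.8 CPM against 4847.7 and 6027.3 in RTF2-deficient line 2. In WT line 2 the gap was narrow, at 6014.0 CPM against 5111.8 and 5937.8. Vim was at 2852.2 CPM against 3924.0 and 3815.0 in WT line 1, and at 2418.5 CPM against 3779.2 and 3386.7 in RTF2-deficient line 2. Of 6 epithelial markers, Cdh1 was highest and Krt19 lowest in all 4. Krt19 had the highest CPM of them, not divided by length, and their sum was 23.2, 46.2 and 45.7 CPM in WT line 1, 22.1, 49.6 and 47.2 CPM in RTF2-deficient line 1, 47.4, 90.8 and 61.6 CPM in WT line 2 and 83.2, 59.0 and 34.6 CPM in RTF2-deficient line 2, while Epcam was at 0.308 CPM or less. Cldn4 was called higher for genotype over both lines (edgeR adjusted p = 0.00417), 1 of the 6 beside 1.72% of all genes, and in line 2 (adjusted p = 0.0119), 1 of the 6 beside 3.78%. Both calls were kept in all 12 fits that leave out a library, but DESeq2 called 0 of the 6 in either, and Cldn4 was at 0.866 CPM or less, with some WT libraries at 0. WT line 2 against WT line 1, 2 of the 6 were called higher, beside 6.76% of all genes. They were Krt18 (1.94, SE 0.316, adjusted p = 0.00213), kept in all 12 fits, and Krt8 (adjusted p = 0.0333), at 0.334 CPM or less and lost when any WT library was left out. Krt18 was also called higher between the RTF2-deficient lines (1.73, SE 0.307, adjusted p = 0.0157), 1 of the 6 beside 1.28% of all genes, a call lost when RTF2-deficient line 2 lost replicate 1 or 2. The part of these genes in the levels of the set was not tested.

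Promoters are shown because the 10 genes moved together across libraries. RefSeq promoters (GRCm38.p6, 250 bases before to 50 after the start) were at hand for 7 of the 10. These were Isg15, Uba7, Herc6, Ube2l6, Rsad2, Bst2 and Cmpk2, and none was at hand for Usp18, Mx1 and Mx2. For Cmpk2 the window, chr12:26468965-26469264, is placed on a start downstream of the gene start given above, 26469117. Fewer than 250 bases before that gene start were therefore searched. The core of the interferon-stimulated response element (ISRE), GAAANNGAAA on either strand, was found in 3 of the 7, beside 3.94% of the promoters of 18038 genes of the table, and at least 2 times in 2 of the 7, beside 0.288%. The core of the gamma-activated site (GAS), TTCNNNGAA, was in 1 of the 7, Bst2, where it overlaps the ISRE core, beside 9.16% of all. A match is a description of letters in this window. Those letters are not in the windows of Uba7, Herc6, Ube2l6 and Cmpk2. Capitals mark the ISRE cores in the 3 promoters that hold it, each given 5′ to 3′ on the strand of its gene. Isg15 (chr4:156200769-156201068, minus strand) has 3 overlapping cores, Bst2 (chr8:71537423-71537722, minus strand) 2 overlapping cores, and Rsad2 (chr12:26456403-26456702, minus strand) 1 core, which is on the opposite strand.
Isg15: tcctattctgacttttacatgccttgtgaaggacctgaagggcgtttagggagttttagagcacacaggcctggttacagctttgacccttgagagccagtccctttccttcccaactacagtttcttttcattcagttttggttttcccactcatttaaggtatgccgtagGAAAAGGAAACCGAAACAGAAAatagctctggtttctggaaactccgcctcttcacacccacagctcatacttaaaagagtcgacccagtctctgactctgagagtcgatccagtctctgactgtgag
Rsad2: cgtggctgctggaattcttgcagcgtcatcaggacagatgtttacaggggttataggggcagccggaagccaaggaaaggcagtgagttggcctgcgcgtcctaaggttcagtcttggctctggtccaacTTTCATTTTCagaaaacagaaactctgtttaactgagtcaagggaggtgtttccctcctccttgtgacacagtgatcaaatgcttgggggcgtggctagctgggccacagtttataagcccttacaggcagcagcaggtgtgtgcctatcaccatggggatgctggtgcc
Bst2: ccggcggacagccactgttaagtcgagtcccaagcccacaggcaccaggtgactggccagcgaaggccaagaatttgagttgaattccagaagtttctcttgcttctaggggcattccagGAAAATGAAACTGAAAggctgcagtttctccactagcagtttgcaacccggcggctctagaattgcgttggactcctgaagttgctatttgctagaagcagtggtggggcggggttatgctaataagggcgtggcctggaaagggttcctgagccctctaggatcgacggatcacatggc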

How the data were processed

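Counts per gene of RNA-seq were taken from the table the authors deposited, raw counts with 1 column per library. HTSeq and mm10 are named in the submitters' processing notes, while the methods name Salmon, and which made the counts was not settled. Of 24100 genes, 24045 were matched to RefSeq by identifier. Counts were filtered with filterByExpr over the 4 groups, normalized by TMM and tested with the quasi-likelihood F test of edgeR 4.0.16 (R 4.3.3, limma 3.58.1) in 6 comparisons, with p-values adjusted by Benjamini-Hochberg over all 14263 genes tested. Calls needed a log2 fold change beyond 1 besides an adjusted p under 0.05. Each SE was the size of the unshrunken coefficient over the root of F. DESeq2 1.42.0 was the other tool. CPM is TMM-normalized, exon lengths are from GENCODE, positions and promoters are from RefSeq (GRCm38.p6), and motifs and figures were made with Python 3.11.15 and matplotlib 3.10.9. Likeness was computed for genes with a mean of at least 1 CPM.

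The members and lists were chosen with earlier results of these data known. Genes named beyond the members are from the 10 most like the set, those called in a list and the most abundant of a list. Ligands and markers with at least 10 counts in a library could be named too. Ifnar1, Ifnar2, Irf7, Xist, Ddx3y and markers under 10 counts were named after their values were seen. So were Ube2e1, Ube2n, Herc3, Herc4 and Usp21, for their order over the libraries that stand apart. Alternatives were RLE size factors, a filter of 1 CPM in at least 6 libraries or none, DESeq2, a replicate block, no fold threshold, no line term, summed libraries, each line alone and leaving out each library. Replicate numbers were checked for pairing between genotypes by correlating deviations from group means across genes, which are not independent. In line 1, same numbers gave r of 0.625, 0.43 and 0.484, and a replicate block there called 92 genes and 0 members by edgeR. Calls in the other lists were counted with each library left out, and pairs of line 1 compared, after the data were seen. Leaving out WT line 2 replicate 1 and RTF2-deficient line 2 replicate 3 together was added after the data were seen. The code was tested on simulated data.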

Additional observations from a re-analysis of the deposited data

How the results depend on the processing

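All fold changes of the 10 genes for genotype over both lines were below 0 under every alternative (199 values, -4.90 to -0.13), and all for WT line 2 against WT line 1 were above 0 (179 values, 0.37 to 7.47). For genotype over both lines, 0 members were called by edgeR with no filter, with a replicate block, with no line term and with summed libraries, and 159 genes were called with the filter of 1 CPM, 163 with no line term and 0 with summed libraries, where fewer samples were left. With the adjusted p alone, genes called were 1878 over both lines, 456 in line 1, 1776 in line 2, 1998 between WT lines and 276 between RTF2-deficient lines, since the fold threshold was dropped. DESeq2 called 1 member in line 2, 9 between WT lines and 4 between RTF2-deficient lines, 268 genes for the difference of effects and 332 genes between RTF2-deficient lines. Between WT lines, 2 members, Rsad2 and Cmpk2, were called with the filter of 1 CPM, which Mx1 did not pass. The replicate block called 2, Isg15 and Rsad2, so Isg15 was gained and Mx1, Mx2 and Cmpk2 were lost. With that block Usp18 turned to -0.02 in the difference of effects. In line 2 the same replicate numbers of the genotypes did not pair (r of -0.587, 0.17 and -0.279 across genes). WT libraries 1, 2 and 3 correlated best with RTF2-deficient libraries 3 (0.654), 1 (0.612) and 2 (0.367), none with its own number, a hint from the data and not from the design. Leaving out both WT line 2 replicate 1 and RTF2-deficient line 2 replicate 3, chosen after seeing the data, gave 2 members over both lines, 4 in line 2, Usp18 at -0.89 in the difference of effects and Ube2l6 at -0.31 between RTF2-deficient lines. Apart from the constructions named, the cause was not tested.

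Leaving out each library in turn gave 0 to 2 members over both lines, 78 to 135 genes in line 1, 320 to 888 genes and 0 to 7 members in line 2, 59 to 140 genes for the difference of effects, 0 to 9 members between WT lines and 98 to 226 genes between RTF2-deficient lines. In line 1 Isg15 ran from -2.04 to 0.27, Rsad2 from -0.62 to 0.50 and Bst2 from -1.66 to 0.21, and in line 2 Mx1 ran from -4.95 to 0.15. The difference of effects ran from -2.53 to 0.79 for Isg15, -2.03 to 2.30 for Usp18, -3.15 to 0.49 for Uba7, -2.03 to 0.08 for Herc6, -1.88 to 0.44 for Ube2l6, -4.35 to 0.75 for Mx1, -3.99 to 1.72 for Mx2, -5.13 to 0.25 for Rsad2, -2.19 to 0.76 for Bst2 and -4.05 to 0.60 for Cmpk2. Between RTF2-deficient lines Ube2l6 ran from -0.31 to 1.19. The cause was not tested. Counts near the floor limit Mx2, with 3 counts in WT line 1 replicate 2.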
